A study of Mus musculus with 9 samples.

Results

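The genes described here make the lipids of the meibomian gland: Awat1, Awat2 and Soat1 (acyltransferases), Far2 (fatty alcohol formation), Elovl3 and Elovl4 (chain elongation), Scd1 and Scd3 (desaturation) and Fa2h (hydroxylation). They were taken by symbol from a table of 20603 genes in the conjunctiva of the mouse, a thin mucosa on the inner lids and the eyeball. Of the 9 symbols 8 had a row, and Awat1 was not analysed here. The 9 were chosen from their CPM levels in these same 9 libraries, above all in 1 knockout pool, so the levels and the knockout differences below are a description without a test.

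Messenger RNA was sequenced from 9 libraries of C57BL/6J mice, each made from the pooled conjunctiva of 3 mice, with 3 libraries in each of 3 groups. Challenged knockouts were Vegfr3 fl/fl;Prox1CreERT2 mice (Vegfr3iLECko), in which tamoxifen switches on a Cre recombinase driven by Prox1, a gene of lymphatic endothelium. Challenged controls and unchallenged controls were Vegfr3 fl/fl littermates without the Cre. All groups, controls included, were injected with tamoxifen 5 times in week 5 (75 mg/kg). In week 6 they were all immunized with ovalbumin (250 µg) together with pertussis toxin (0.3 µg) and aluminum hydroxide (5 mg). Beginning 14 days later, challenged eyes received a daily drop of 250 µg of ovalbumin in 5 µL for 28 days. The contralateral eye received saline, but whether it supplied the unchallenged pools is not stated, nor is how much of the lid went into a dissection.

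Meibomian glands sit in the tarsal plate of the eyelid, directly beneath the palpebral conjunctiva. Their cells, the meibocytes, fill with lipid and burst to release meibum, the oily layer that slows the evaporation of tears. Meibum is rich in wax esters and cholesteryl esters with very long chains. To build a wax ester, a fatty acyl chain is elongated and desaturated, a second chain is reduced to a fatty alcohol, and an acyltransferase joins them.

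Total counts were 16490050 to 24746836 per library, and 24093007 in knockout pool 1. Levels are counts per 1000000 reads (CPM) scaled with TMM factors. The detection floor of 3 counts lay at 0.115 to 0.186 CPM. Flt4, the gene of Vegfr3 and the target of the deletion, was at 13.0, 5.07 and 5.32 CPM in knockout pools 1 to 3. It was at 13.4, 20.3 and 20.1 CPM in challenged controls 1 to 3 and at 18.5, 26.8 and 13.5 CPM in unchallenged controls 1 to 3. Knockout pool 1 was thus close to challenged control 1 and unchallenged control 3 in its target gene, and it stood apart from the other knockout pools in Flt4 as well as in the genes below. Why Flt4 differed between the knockout pools, and whether that bears on the genes below, was not tested. Keratins of the conjunctival epithelium were present throughout: Krt5 was at 6279 to 16101 CPM and Krt4 at 2404 to 5079.6 CPM over the 9 libraries. Lowest in knockout pool 1 were Krt4 (2404 CPM, against 3080 to 5080 CPM elsewhere) and Krt13 (2127 CPM, against 2340 to 4200 CPM). Krt5, Krt14 and Krt19 lay there within the range of the others. Krt13, Krt14 and Krt19 are named here after their values were seen. In bulk tissue, more cells of a type and more RNA per cell cannot be told apart.

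All 8 genes had their highest level in knockout pool 1. Of all genes, 8.62% were highest in that library. The summed level of the 8 genes was 1428, 62.4 and 57.4 CPM in knockout pools 1 to 3. It was 104, 90.5 and 62.7 CPM in challenged controls 1 to 3 and 160.2, 157.8 and 76.8 CPM in unchallenged controls 1 to 3. Knockout pool 1 alone stood above every other library, and knockout pools 2 and 3 had the lowest sums of all, pool 2 by a narrow margin. Outside knockout pool 1 most of each sum was Scd1 and Soat1, and not every gene followed that order: Awat2 was lowest in challenged control 3. Of the counts of each library, the 8 genes took 0.152% in knockout pool 1 and 0.00558% to 0.017% in the other libraries.

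**Figure D1:**
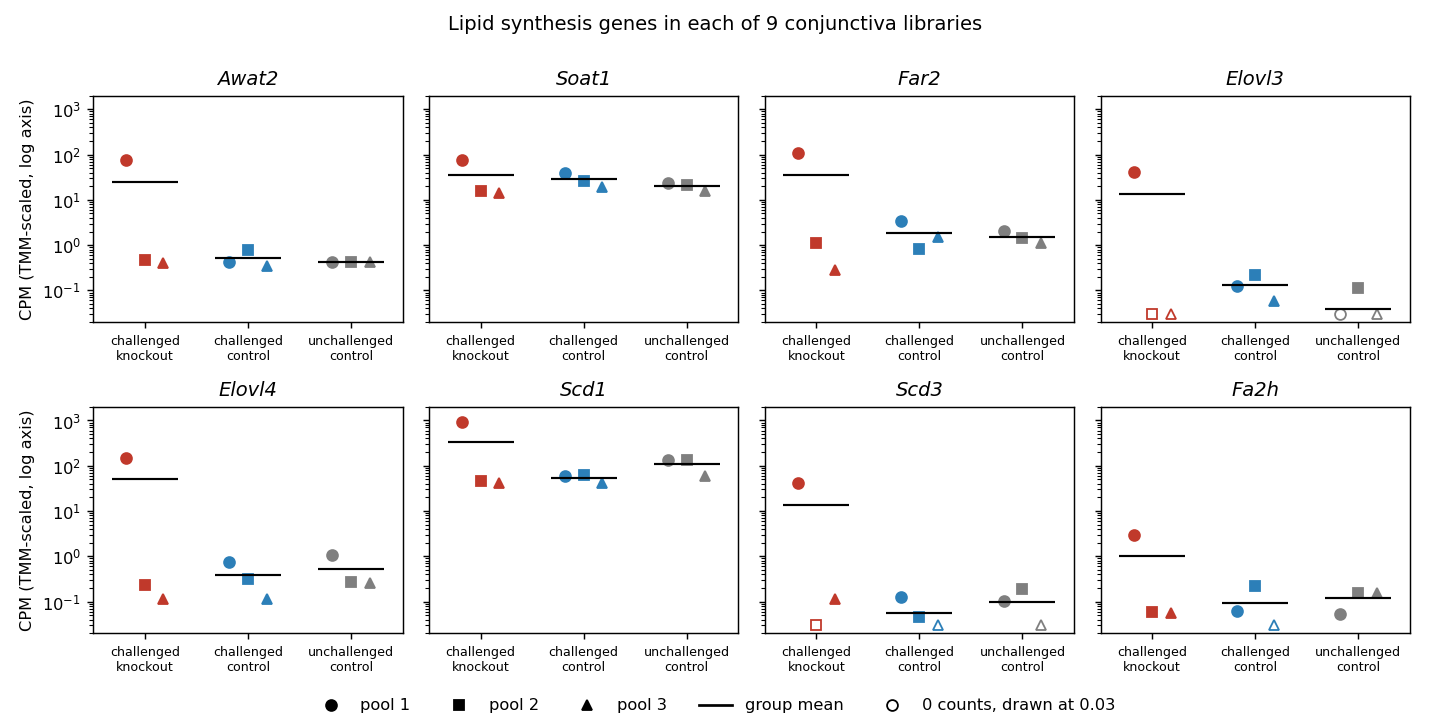
Level of each gene in each library, as TMM-scaled CPM on a log axis, with challenged knockouts, challenged controls and unchallenged controls from left to right. Each marker is a pool of 3 mice, the line is the group mean, and open markers are libraries with 0 counts, drawn at 0.03. The circle of knockout pool 1 is the highest marker in all 8 panels.

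Among the acyltransferases, Awat2 joins fatty alcohols to acyl chains and is the wax ester synthase of the mouse meibomian gland. Its level was 74.4, 0.472 and 0.400 CPM in knockout pools 1 to 3. It was 0.433, 0.762 and 0.342 CPM in challenged controls 1 to 3 and 0.419, 0.421 and 0.420 CPM in unchallenged controls 1 to 3. Awat2 was near 0.5 CPM in 8 libraries, and knockout pool 1 exceeded the highest of them 97.7-fold. Soat1 esterifies cholesterol and is expressed in many cell types. Its level was 76.1, 15.3 and 14.4 CPM in knockout pools 1 to 3, against 39.0, 26.0 and 19.4 CPM in challenged controls and 23.2, 21.5 and 15.3 CPM in unchallenged controls. Soat1 was the least extreme of the 8 genes, 1.95-fold above its highest other library, and knockout pools 2 and 3 lay below all challenged controls.

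Far2 reduces acyl-CoA to the fatty alcohol of a wax ester. Its level was 106.5 CPM in knockout pool 1, and 1.12 and 0.286 CPM in knockout pools 2 and 3. Challenged controls 1 to 3 had 3.34, 0.807 and 1.48 CPM, and unchallenged controls 1 to 3 had 2.04, 1.42 and 1.10 CPM. Knockout pool 1 was thus 31.9-fold above its highest other library, challenged control 1.

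Elovl3 elongates saturated and monounsaturated acyl chains in skin glands and brown fat. It had 1031, 0 and 0 counts in knockout pools 1 to 3. Challenged controls had 2, 5 and 1 counts and unchallenged controls had 0, 3 and 0. In CPM, knockout pool 1 was at 40.1 and the other libraries at 0 to 0.224, within a few reads of the floor. Elovl4 is needed for the very long chains of skin, retina and meibum. Its level was 150.3, 0.236 and 0.114 CPM in knockout pools 1 to 3, against 0.742, 0.314 and 0.114 CPM in challenged controls and 1.05, 0.268 and 0.262 CPM in unchallenged controls. Knockout pool 1 was 144-fold above unchallenged control 1, the next highest library. Both elongases were above 1.05 CPM in a single library.

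Scd1, a stearoyl-CoA desaturase that puts the double bond into oleate and palmitoleate, was the only one of the 8 with over 40 CPM everywhere. Its level was 936, 45.2 and 42.0 CPM in knockout pools 1 to 3. Challenged controls 1 to 3 had 60.1, 62.1 and 41.3 CPM, and unchallenged controls 1 to 3 had 133.3, 133.7 and 59.5 CPM. Knockout pool 1 lay 7.0-fold above unchallenged control 2, while knockout pools 2 and 3 lay within the range of the challenged controls. Scd3, a paralogue that in the mouse is found in sebaceous and related glands, had 1060, 0 and 2 counts in knockout pools 1 to 3. It had 2, 1 and 0 counts in challenged controls and 2, 5 and 0 counts in unchallenged controls. At 41.3 CPM, knockout pool 1 was 216-fold above the highest other library, the widest gap of the 8 genes.

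Fa2h adds a hydroxyl group at the second carbon of fatty acids, including those of skin sphingolipids. It had 77, 1 and 1 counts in knockout pools 1 to 3, against 1, 5 and 0 counts in challenged controls and 1, 4 and 3 counts in unchallenged controls. Its 3.00 CPM in knockout pool 1 was the lowest of the 8 genes there and 13.4-fold above the highest other library.

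To compare genes with each other, levels were divided by the length of the longest coding transcript of each gene in GENCODE vM21 (GRCm38), an annotation other than the authors'. In knockout pool 1 the order per kilobase was Scd1 (194 CPM per kb), Elovl4 (50.1), Awat2 (37.5), Far2 (30.6), Elovl3 (21.3), Scd3 (11.8), Soat1 (9.10) and Fa2h (1.2). With a single such library there is no replicate error for this order. The desaturase Scd2 is the main form in many tissues other than liver and fat, and is not among the 9. It was at 95.5 CPM per kb in knockout pool 1 and at 43.2 to 98.9 CPM per kb in the other libraries. Per kilobase Scd1 exceeded Scd2 in knockout pool 1 and was below Scd2 in each of the other 8 libraries, where Scd1 was at 8.55 to 27.7 CPM per kb. Scd1 to Scd4 are close copies, so reads may be split among them. Of the stretches of 50 bases in the Scd3 transcript, 4.85% also occur in Scd1, 3.95% in Scd2 and 1.98% in Scd4. For Awat2, Far2, Elovl3, Elovl4 and Soat1, 0 stretches were shared with the relatives compared.

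Promoters are shown for Elovl4, Far2 and Scd3, the genes that exceeded every other library more than 10-fold in knockout pool 1 and had a single entry among the promoter sequences. The sequences are from RefSeq (GRCm38.p6) and give the 250 bases before the gene start. Capitals mark matches to 6 motifs searched on both strands: AGGTCA (a site of PPAR and other nuclear receptors), TCACNCCAC (a sterol response element), CACGTG (an E-box), GGGCGG (a GC box), CCAAT and TATAAA. Entries were found for 6 of the 9 genes, and those for Scd1, Elovl3 and Fa2h were not among them.
Elovl4, chr9:83806306-83806555, minus strand: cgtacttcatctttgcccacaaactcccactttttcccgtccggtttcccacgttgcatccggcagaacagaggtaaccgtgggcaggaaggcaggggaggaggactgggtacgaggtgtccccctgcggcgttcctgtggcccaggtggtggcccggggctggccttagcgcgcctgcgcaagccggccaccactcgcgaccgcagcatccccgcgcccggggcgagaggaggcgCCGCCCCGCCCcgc
Far2, chr6:148047166-148047415, plus strand: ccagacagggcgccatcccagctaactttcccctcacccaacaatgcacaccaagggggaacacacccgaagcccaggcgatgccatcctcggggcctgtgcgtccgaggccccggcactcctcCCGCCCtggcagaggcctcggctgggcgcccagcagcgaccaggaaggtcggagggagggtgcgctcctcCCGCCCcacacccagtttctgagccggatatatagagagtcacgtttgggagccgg
Scd3, chr19:44203038-44203287, plus strand: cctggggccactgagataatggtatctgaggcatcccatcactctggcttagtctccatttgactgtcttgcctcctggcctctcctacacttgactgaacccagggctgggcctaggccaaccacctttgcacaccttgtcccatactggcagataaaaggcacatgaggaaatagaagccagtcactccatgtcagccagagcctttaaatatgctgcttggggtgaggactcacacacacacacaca
Elovl4 and Far2 each held 2 GC boxes, overlapping by a base in Elovl4, and Scd3 matched none of the 6. A GC box is in 32.7% of 32851 windows of this kind. Of the 7 windows of the genes, 0 held AGGTCA (14% of all windows), TCACNCCAC (1.05%), CACGTG (6.02%) or TATAAA (12.4%), and 3 held CCAAT (33.8%), 2 of Awat2 and 1 of Soat1.

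The first comparison set challenged knockouts against challenged controls, to ask about Vegfr3 in lymphatic vessels. Knockout pool 1 had Flt4 at 13.0 CPM, close to the lowest controls. The knockout mean of every gene but Soat1 was set almost wholly by pool 1. That pool held 100% of the knockout CPM sum of Elovl3, 99.8% of Elovl4, 99.7% of Scd3, 98.8% of Awat2 and 98.7% of Far2. It held 96.3% of Fa2h, 91.5% of Scd1 and 71.9% of Soat1. For Fa2h, the gene with fewest reads, 77 of 79 knockout counts came from pool 1, a share of 97.5% with a 95% Wilson interval of 91.2% to 99.3%, which covers counting error only.

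**Figure D2:**
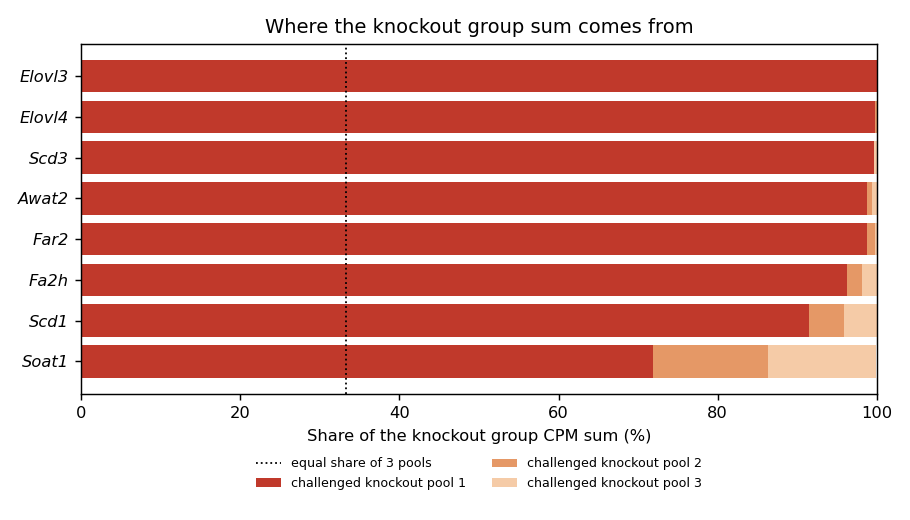
Share of the summed CPM of the 3 challenged knockout pools that each pool holds, in percent, 1 bar per gene. The dotted line is the equal share of 3 pools. Pool 1 holds 71.9% (Soat1) to 100% (Elovl3).

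The SD of the knockout group therefore exceeded its mean for all 8 genes, if barely for Soat1. Awat2 averaged 25.1 ± 42.7 CPM in challenged knockouts and 0.512 ± 0.221 CPM in challenged controls (SD, n = 3 pools each). Elovl4 averaged 50.2 ± 86.7 and 0.390 ± 0.321 CPM in the same groups, and Scd1 341 ± 515 and 54.5 ± 11.5 CPM. Without pool 1 the knockout mean was 0.436 CPM for Awat2, 0.175 CPM for Elovl4 and 43.6 CPM for Scd1, all below the challenged control mean. For Soat1 it was 14.8 CPM without and 35.3 ± 35.4 CPM with pool 1, against 28.2 ± 9.99 CPM in challenged controls. Including pool 1 raised the knockout mean 2.38-fold for Soat1, 7.82-fold for Scd1, 51.1-fold for Far2, 57.6-fold for Awat2 and 287-fold for Elovl4.

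A filter on low counts, which asks for expression in at least 3 libraries, let 4 of the 8 genes into the edgeR fit across 15613 genes: Elovl4, Far2, Scd1 and Soat1. Awat2, Elovl3, Scd3 and Fa2h did not pass it, since high counts in 1 library do not meet it. Elovl4 passed with knockout pool 1 as 1 of its 3 libraries (3861 counts). The others were challenged control 1 (12 counts) and unchallenged control 1 (20 counts). With only the 2 groups compared in the fit, 3 of the genes were tested and Elovl4 was not. Between challenged knockouts and challenged controls the log2 fold change was 7.02 (SE 2.25) for Elovl4, 4.28 (SE 1.66) for Far2, 2.65 (SE 1.04) for Scd1 and 0.33 (SE 0.58) for Soat1. Without pool 1 all 4 changed sign, to -1.11 (SE 1.08), -1.40 (SE 0.77), -0.32 (SE 0.34) and -0.92 (SE 0.31). Without pool 2 or pool 3 they kept their sign (7.61 and 7.61 for Elovl4, 0.69 and 0.70 for Soat1). The median of the 4 was 3.46, and -1.01 without pool 1, while the median over all genes tested was 0.0027. At a Benjamini-Hochberg adjusted p of 0.05, edgeR called 0% of all genes tested, the 4 among them, and 8.49% of all genes had an unadjusted p under 0.05. Since the genes were chosen on these values, nothing is read from their calls.

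**Figure D3:**
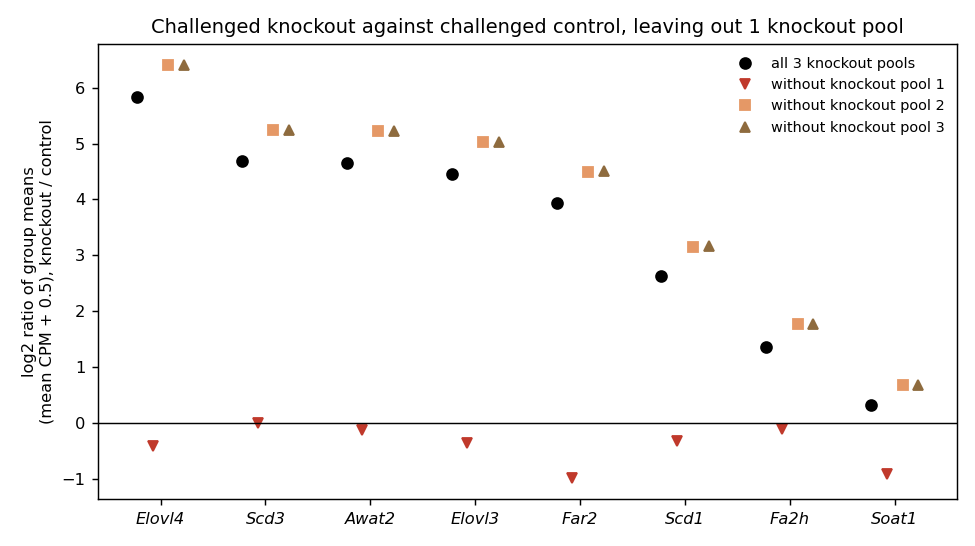
Log2 ratio of group mean CPM, challenged knockout over challenged control, with 0.5 CPM added to each mean, using all 3 knockout pools or leaving 1 out. With pool 1 left out the ratios lie between -0.98 (Far2) and 0.0026 (Scd3). With all pools they lie between 0.32 (Soat1) and 5.83 (Elovl4).

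Set against unchallenged controls, which are shared with the challenge comparison below, the knockout group gave the same picture. The log2 fold change was 6.60 (SE 2.16) for Elovl4, 4.57 (SE 1.67) for Far2, 1.65 (SE 1.0) for Scd1 and 0.82 (SE 0.58) for Soat1. Without pool 1 the values were -1.54 (SE 1.06), -1.10 (SE 0.77), -1.32 (SE 0.35) and -0.43 (SE 0.31). Scd1 was then at 45.2 and 42.0 CPM in the knockout pools, below all unchallenged controls. By edgeR 0% of all genes passed, the 4 among them, with 2.9% of all genes under an unadjusted p of 0.05, and again nothing is read from the calls of the 4.

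The second comparison asked what ovalbumin challenge did in control mice, where the summed level of the 8 genes was at most 160.2 CPM in any pool. Scd1 averaged 54.5 ± 11.5 CPM in challenged and 109 ± 42.7 CPM in unchallenged controls (SD, n = 3 each), a log2 fold change of -0.998 (SE 0.99). The groups overlapped, since challenged controls 1 and 2 exceeded unchallenged control 3. Scd1 is abundant in fat, and 7 of 10 tested adipocyte genes had an unadjusted p under 0.05 in this comparison, against 12.4% of all genes, with a median log2 fold change of -2.76. By edgeR 0 of the 10 passed, and 4 did, all lower, when the controls were paired by replicate number, where 1.71% of all genes passed. These were Adipoq, Cfd, Cidec and Pck1, with adjusted p of 0.0186 to 0.0413 in that edgeR fit. The part of fat in the Scd1 values was not tested. Soat1 averaged 28.2 ± 9.99 and 20.0 ± 4.13 CPM (log2 0.49, SE 0.58), also with overlap. Far2 averaged 1.88 ± 1.31 and 1.52 ± 0.478 CPM (log2 0.28, SE 1.59), and Elovl4 0.390 ± 0.321 and 0.526 ± 0.451 CPM (log2 -0.42, SE 2.40). None of these 4 passed the edgeR quasi-likelihood test, with adjusted p of 0.794 for Scd1, 0.842 for Soat1 and 0.982 for Far2 and Elovl4. Elovl4 met the count filter of this fit with the help of knockout pool 1, and a fit of the 2 control groups alone did not test it. The test called 0.0640% of all genes, and 0 of the 4 had an unadjusted p under 0.05. DESeq2 gave an adjusted p to Soat1 only and limma-voom called 0. In the edgeR fit with the replicate block, Scd1 was at -0.88 (SE 0.79, adjusted p = 0.626) and Soat1 at 0.42 (SE 0.37, adjusted p = 0.628). None of the 4 passed in that fit.

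Since the 3 groups shared an estimate of the spread, knockout pool 1 widened the errors of this comparison although it is no part of it. Without that pool, the challenge estimate of Scd1 was -0.997 with an SE of 0.30 (adjusted p = 0.199), and that of Soat1 was 0.49 with an SE of 0.27 (adjusted p = 0.533), where edgeR called 0.0375% of all genes. Without knockout pool 1, Scd1 alone of the 4 had an unadjusted p under 0.05 in the edgeR test, against 12.5% of all genes. With only the 2 control groups fitted, Scd1 was at -0.9998 (SE 0.327, edgeR adjusted p = 0.293). It was there the 1 of 3 tested genes under an unadjusted p of 0.05, against 11% of all genes. Over the 9 fits that each omitted a library, the adjusted p of Scd1 was 0.199 to 0.958. Awat2, Elovl3, Scd3 and Fa2h averaged 0.512, 0.135, 0.0562 and 0.0953 CPM in challenged controls and 0.420, 0.0383, 0.0987 and 0.121 CPM in unchallenged controls. Apart from Awat2, with 6 to 17 counts in each control library, these genes had 0 to 5 counts per control library, so a difference was not detectable at this depth.

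Other genes of lipid synthesis and of meibocytes were read from 9 lists with 107 entries, of which 104 were in the table and 96 were tested. In the knockout comparison 0 of the 96 passed by edgeR, where 0% of all genes did, and 20 (20.8%) had an unadjusted p under 0.05, against 8.49% of all genes. DESeq2 called 6 of them, with Acacb, Cyp4f39, Me1, Plin5 and Sec14l4 higher and Prdm1 lower in knockouts, where it called 231 of all 15613 genes, and limma-voom called 0. The median log2 fold change of the 96 was 0.06, and -0.03 without pool 1. Among the 104, 25 were highest in knockout pool 1, against 8.62% of all genes, and 3 exceeded every other library more than 10-fold: Scd4, Cyp4f39 and Krt79. Of the 8 genes 6 did, and of all genes 0.121%; in challenged control 1, 0.204% of all genes did.

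Of the pathways that feed the 8 genes, de novo synthesis lay within the range of the other libraries in its 2 most abundant members: fatty acid synthase (Fasn) was at 241 CPM there and 177 to 263 CPM in the other libraries, and Acly, which supplies acetyl-CoA, at 187 and 154 to 232 CPM. By edgeR 0 of the 10 genes of that list passed in any comparison, where it called at most 0.0640% of all genes. DESeq2 called Acacb and Me1 in the knockout comparison, among 231 of all 15613 genes. With challenge it called Acacb, among 753 of all genes. The median log2 fold change of the list between knockouts and challenged controls was 0.26. The 10 tested elongation genes had a median of 0.03. Elovl1, an elongase of saturated very long chains, was at 229 CPM in knockout pool 1 and 108 to 157 CPM in the others, and Elovl5, an elongase of polyunsaturated chains, at 189 and 155 to 209 CPM. Cholesterol synthesis, with 21 tested genes, had a median of -0.15. Srebf2, a transcriptional regulator of the pathway, was at 244 CPM in knockout pool 1 and 199 to 299 CPM in the others.

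The most abundant genes of the acyltransferase and ether lipid lists lay within the range of the other libraries. Dgat2, which makes triglyceride, was at 106 CPM in knockout pool 1 and 68.7 to 120 CPM elsewhere. Far1, the other fatty acyl-CoA reductase, was at 133 CPM and 97.0 to 206 CPM. Agps and Gnpat, which start ether lipids, were at 147 and 56.2 CPM in knockout pool 1 and at 143 to 230 and 42.9 to 63.3 CPM in the others. The median log2 fold change between knockouts and challenged controls was 0.31 (-0.04 without pool 1) for 7 tested genes of the acyltransferase list and 0.04 for 4 ether lipid genes.

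Desaturase Scd4 was the exception of its list, at 85.8 CPM in knockout pool 1 and 0.115 to 1.14 CPM in the others. The other desaturase genes had Scd2 and Cyb5b, an electron donor, as their most abundant members (521 and 167 CPM in knockout pool 1, 235 to 540 and 133 to 160 CPM elsewhere), and the list median was 0.27, and -0.07 without pool 1. Cyp4f39, which hydroxylates the end of very long chains for acylceramides, was at 36.2 CPM in knockout pool 1 and 0.837 to 2.52 CPM elsewhere. Its list of barrier lipids had a median of -0.02, with the fatty acid transporter Slc27a4 at 112 and 86.5 to 182 CPM and the ceramide synthesis gene Sptlc2 at 102 and 88.5 to 135 CPM. Plin2, a lipid droplet coat protein not limited to sebocytes, was at 55.4 CPM in knockout pool 1 and 24.7 to 30.0 CPM in the others. Mgll and Pnpla2, lipases of the droplet list, were at 234 and 79.6 CPM against 129 to 236 and 65.8 to 110 CPM, and the list median was 0.32. Scd4, Cyp4f39 and Plin2 are named here after their values were seen.

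The 14 meibocyte and sebocyte markers in the table summed to 584, 483 and 449.5 CPM in knockout pools 1 to 3, to 439 to 481 CPM in challenged controls and to 461 to 496 CPM in unchallenged controls. Krt79, a keratin of sebaceous and meibomian ducts, was at 82.7 CPM in knockout pool 1 and 0.157 to 1.54 CPM elsewhere. Pparg, the nuclear receptor that drives meibocyte differentiation, was at 5.06 CPM and 0.157 to 1.47 CPM. Mc5r, a melanocortin receptor of sebocytes, was at 0.623 CPM and 0 to 0.115 CPM, at or under the floor outside that pool. These 3 genes were thus at 1.54 CPM or less in 8 of the 9 libraries, although Pparg and Krt79 were above the floor in most of them. They are among 7 of the 14 markers that were highest in knockout pool 1. Other markers went the other way. Apoc1 was lowest in that pool, at 14.99 CPM against 16.6 to 49 CPM in the others. Sox9 was near its lowest there, at 37.8 CPM against 37.2 to 60.1 CPM. Pparg, Mc5r, Apoc1 and Sox9 are named here after their values were seen. The most abundant of the list, Lrig1 and Mgst1, which other epithelia also express, were at 134 and 102 CPM in knockout pool 1 and at 115 to 171 and 62.2 to 113 CPM elsewhere. Of 13 tested markers 0 passed by edgeR without the replicate block in any comparison. In the knockout comparison 4 had an unadjusted p under 0.05, against 8.49% of all genes, and the median was 0.21, and -0.105 without pool 1.

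With challenge 0 of the 96 lipid list genes passed by edgeR, where 0.0640% of all genes did, with 17 (17.7%) under an unadjusted p of 0.05, against 12.4% of all genes. DESeq2 called 4, among them Prdm1 (higher) and Acacb (lower), and 753 of all 15613 genes, and limma-voom called 0. When challenged and unchallenged controls were paired by replicate number, 1 of the 96 passed and 1.71% of all genes did. It was Prdm1, a transcriptional repressor of sebocyte precursors and of many immune and epithelial cells, at 112, 72.3 and 70.4 CPM in challenged and 58.9, 45.3 and 44.5 CPM in unchallenged controls. In log2 units Prdm1 differed by 0.78 (SE 0.22, edgeR adjusted p = 0.172), and by 0.76 (SE 0.11, edgeR adjusted p = 0.0268) with that block. The 21 cholesterol genes had a median of 0.41 with challenge, the highest of the 9 lists, and that of all genes tested was -0.01. Between knockouts and unchallenged controls 0 of the 96 passed, with 4 (4.17%) under an unadjusted p of 0.05, against 2.9% of all genes.

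Markers of neighbouring tissues were read beside these values, and their part in the result was not tested. Of 7 measured eyelid skin and hair genes, 4 were highest in knockout pool 1, as were 8.62% of all genes. Their sum was 174.5, 22.5 and 27.4 CPM in knockout pools 1 to 3, 15.8 to 24.4 CPM in challenged controls and 21.4 to 25.8 CPM in unchallenged controls. Tchh (trichohyalin) and Krt25, both of the inner root sheath of hair, were at 91.2 and 63.8 CPM in knockout pool 1 and at 3.53 to 8.29 and 0.114 to 0.495 CPM elsewhere. Krt1, a keratin of epidermis, was at 8.91 CPM in that pool and 3.77 to 10.9 CPM in the others. None of the 12 adipocyte genes was highest there. Their sum was 121, 80.0 and 110 CPM in knockout pools 1 to 3, 40.9 to 65.9 CPM in challenged controls and 56.6 to 216 CPM in unchallenged controls, and Adipoq was at 0.973 CPM in knockout pool 1 and 0 to 4.21 CPM in the others.

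None of the 11 skeletal muscle genes was highest in knockout pool 1, and their sum was 2606, 2062 and 3463 CPM in knockout pools 1 to 3, against 299 to 792 CPM in challenged and 1192 to 4949 CPM in unchallenged controls. By edgeR 0 of the 11 passed, but all 11 had an unadjusted p under 0.05 with challenge (median log2 fold change -2.35), against 12.4% of all genes. All 11 did so too between knockouts and challenged controls, against 8.49% of all genes. The median there was 2.13, and 2.03 without pool 1. With the replicate block 2 of the 11 passed with challenge, both lower, where 1.71% of all genes did. The sum of 9 conjunctival epithelium genes was 19680, 34260 and 25150 CPM in knockout pools 1 to 3, 19390 to 30020 CPM in challenged controls and 18690 to 28270 CPM in unchallenged controls. Porphyrin synthesis genes, abundant in the rodent Harderian gland, summed to 340 CPM in knockout pool 1, 426 and 415 CPM in knockout pools 2 and 3, 297 to 416 CPM in challenged controls and 325 to 470 CPM in unchallenged controls. Lacrimal gland genes, led by the water channel Aqp5, summed to 142 CPM in knockout pool 1, 275 and 300 CPM in the other knockout pools, 184 to 373 CPM in challenged controls and 130 to 155 CPM in unchallenged controls. The hair list was thus the one of these 6 whose sum in knockout pool 1 exceeded that of every other library.

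**Figure D4:**
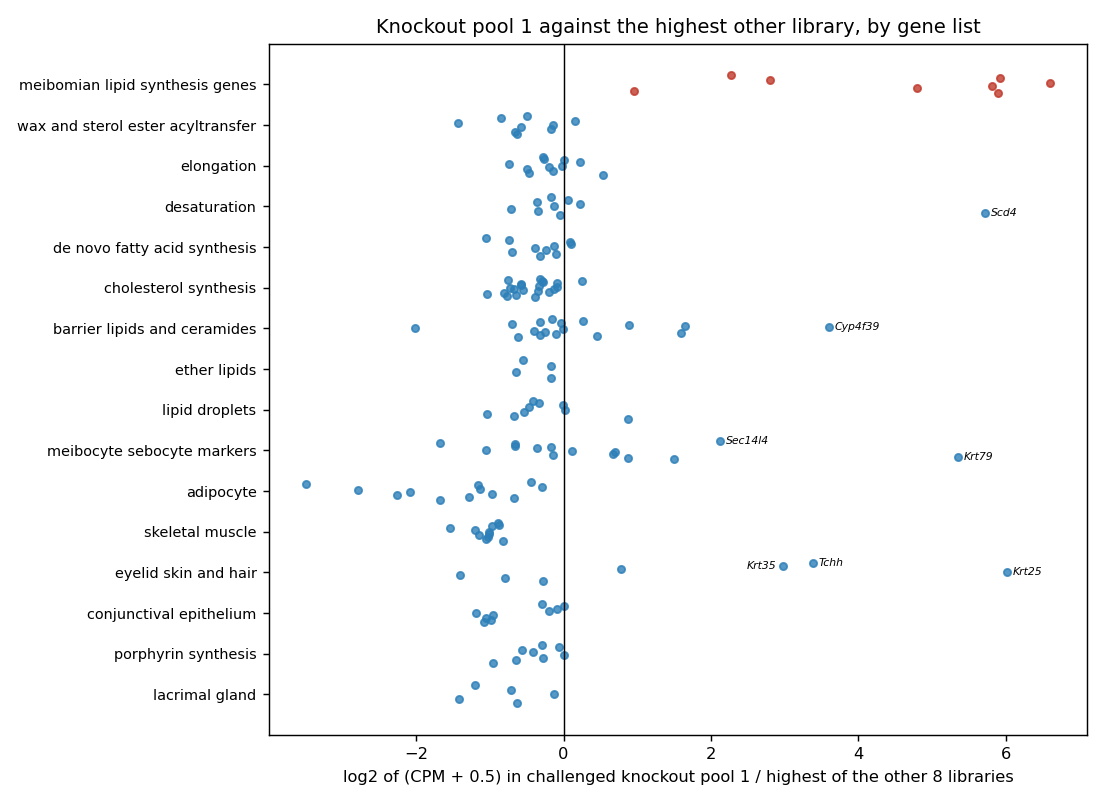
Each point is a gene, placed by the log2 ratio of its level (CPM + 0.5) in challenged knockout pool 1 to the highest of the other 8 libraries. The top row holds the 8 genes of the report and the rows below the 15 lists. Points right of 0 are highest in knockout pool 1, as are 8 of 8 in the top row, and labelled points lie above 2.

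The genes whose pattern over the 9 libraries was most like that of the 8 were named by Pearson's r with the mean of their standardised log2 levels, as a description. They were Ly6d (r = 0.994), Krt25 (0.987), Pla2g2f (0.965), Gm10591 (0.957), Plin2 (0.956), Scd4 (0.954), Krt79 (0.946), Rarres1 (0.938), Car2 (0.934) and Wif1 (0.933). Over the 8 libraries without knockout pool 1, r was -0.271 to 0.763 for these 10 genes. Ly6d, a surface protein of keratinocytes and lymphocytes, was at 19.3 CPM in knockout pool 1 and 0.456 to 1.05 CPM in the others. Car2, a carbonic anhydrase, was at 9.30 CPM and 0.627 to 2.06 CPM.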

How the data were processed

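The authors deposited raw counts of reads per gene symbol for 9 libraries. Per the submitters' processing notes HISAT2, Bowtie2, DESeq2 and the build mm39 were used; the counting program, the annotation and the strand are not stated there or in the labels. Total counts were 16490050 to 24746836. Genes were filtered with filterByExpr (15613 kept), scaled with TMM and fitted over all 9 libraries with edgeR's quasi-likelihood test (R 4.3.3, edgeR 4.0.16, limma 3.58.1, DESeq2 1.42.0). Benjamini-Hochberg adjustment was over all genes tested. An edgeR SE is the absolute log2 fold change divided by the square root of the F statistic of that fit. The code was tested on simulated data. The biological coefficient of variation was 31.7%. P-values measure the spread between pools of 3 mice. Sequences are from RefSeq (GRCm38.p6), another build than the authors', so they serve as background. Members, lists and tests were chosen with earlier results of these data known. Beside the members, the rule named up to 4 genes of each of 15 lists that passed, or else the 2 most abundant, and the 10 most alike in pattern with a mean of at least 1 CPM; some list genes are not reported here. Without molecular identifiers, reads may be copies of a molecule, so that intervals and floors give counting error alone.

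Replicate numbers were checked for pairing by correlating deviations from group means of same-numbered libraries. They were 0.273 to 0.527 between challenged and unchallenged controls, with 3 of 3 pairs above 0.1. The challenge comparison is therefore also given with replicate number as a block, while the main fit has none. For knockouts they were -0.168 to 0.353 with challenged controls, with 2 of 3 pairs above 0.1. Knockout pool 2 and challenged control 3, of unlike number, had 0.398, so the numbers did not clearly pair these groups. The block was fitted over all 9 libraries, so the knockout pools share it. The labels do not say what a number marks. No library was a copy of another. Alternatives were other scalings, tools and filters, the block, and leaving out each library.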

Additional observations from a re-analysis of the deposited data

How the results depend on the processing

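Of the 201 alternative values of Elovl4, Far2, Scd1 and Soat1 over the 3 comparisons, 0 passed the threshold, and DESeq2 gave no adjusted p for 9 of them. Without knockout pool 1 all 4 changed sign in both knockout comparisons, and in the other 8 fits that left out a library none did. The median of the tested genes between knockouts and challenged controls was 1.35 with limma-voom and 0.30 with quality weights, and -1.01 to 4.99 with 1 library left out. Against unchallenged controls it was 1.04 with limma-voom, -0.027 with quality weights and 5.23 without a count filter (8 genes), and -1.21 to 5.15 with 1 library left out. With challenge it was -0.07, and -0.42 to 0.51 with 1 library left out; these fits tested 4 or 5 of the genes. The quality weight of knockout pool 1 was 0.542.

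Counts of genes called between knockouts and challenged controls were 0 by edgeR, 231 by DESeq2, 6 with quality weights and 22 with the replicate block, and 0 whichever library was left out. Against unchallenged controls they were 0, and 14 by DESeq2. With challenge they were 10, and 753 by DESeq2, 6 with limma-voom, 256 with quality weights, 20 without a filter, 267 with the block, 1 with only these 2 groups, and 0 to 121 with 1 library left out. With the replicate block 1 lipid list gene passed in the knockout comparison (Prdm1, log2 -0.90, edgeR adjusted p = 0.0354) and 1 with challenge, and 0 passed whichever library was left out. Replicate numbers did not clearly pair knockouts with challenged controls, so the blocked value of Prdm1 in the knockout comparison rests on an unsupported pairing. The block changed no call of the 4 genes. The causes were not tested. Genes with a handful of counts outside knockout pool 1 are limited by depth.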

Other observations

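In all, 25 genes exceeded every other library more than 10-fold in knockout pool 1 at 1 CPM or more, against 42 in challenged control 1 and 0 or 1 in each of the other libraries. Of the 25, 6 were among the 8 genes of the report, 3 were in the other lipid lists (Scd4, Cyp4f39 and Krt79) and 4 were hair keratins or trichohyalin: Krt25, Krt28, Krt35 and Tchh. Krt28, an inner root sheath keratin, was at 6.23 CPM in knockout pool 1 and 0 to 0.179 CPM in the others. Krtdap, a protein of differentiating keratinocytes, was at 15.3 CPM and 0 to 0.743 CPM. These genes were chosen after their values were seen.

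Smooth muscle genes, also chosen after their values were seen, were highest in the same library. Acta2 (smooth muscle actin) was at 218, 7.49 and 35.2 CPM in knockout pools 1 to 3 and 10.1 to 20.9 CPM in the control libraries. Myh11 (smooth muscle myosin) was at 188, 1.89 and 27.9 CPM in knockout pools 1 to 3 and 2.73 to 10.6 CPM in the control libraries. Unlike the lipid genes, both were second highest in knockout pool 3. The part that these tissues have in the result was not tested.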
